A study of Rattus norvegicus with 23 samples.

Results

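Axon and vessel guidance genes encode the cues and receptors that attract or repel growing nerve fibers and sprouting vessels. The genes described here are those whose symbol begins with Sema, Plxn, Epha, Ephb, Efna, Efnb, Slit, Robo, Ntn or Unc5 (with a number after Sema, Slit, Robo and Ntn), together with Nrp1, Nrp2 and Dcc. In the rat reference table, 72 symbols met this rule, and 57 of them had a probe among the 16581 genes with a symbol on the array. They were 17 semaphorins, 2 neuropilins, 4 plexins, 3 Slits, 2 Robos, 4 netrins, 5 netrin receptors, 7 ephrins, 11 Eph receptors, and Unc50 and Unc5cl, which match by name only. The other 15 (Sema3f, Sema5b, Sema6a, Plxna1, Plxna4, Plxnb1, Plxnb2-ps1, Plxnc1, Plxnd1, Robo3, Robo4, Efna3, Epha6, Epha10 and Ephb3) were not analysed here.

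RNA of 6 regions of the heart and great vessels was hybridized to 23 one-color arrays, where the brightness of a spot follows the amount of Cy3-labeled cRNA that its probe captures. The regions were the left atrium beside the pulmonary vein (LA, 4 arrays), the left ventricle (LV, 4 arrays), the outer wall of the right ventricle (RV, free wall, 3 arrays), the sinoatrial node region (SA, 4 arrays), the pulmonary vein (PV, 4 arrays) and the pulmonary artery (PA, 4 arrays). LV and RV together are called V. The animals were 12 male Wistar rats aged 8 to 11 weeks, of no stated mutation. They received pentobarbital sodium and heparin for deep anesthesia before the heart and lungs were removed, and no other drug treatment was stated. All tissues were dissected on ice under flowing salt solution. Each SA sample pooled the tissue of 2 rats, the LV samples were pieces of a ventricle cut in 3, and nothing in the labels ties samples of equal number to the same animal, so that p-values measure the spread between these samples, which may be partly technical.

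Guidance cues act in families of ligands and receptors. Secreted class 3 semaphorins bind neuropilins, which signal through plexins, whereas membrane-bound semaphorins of classes 4 to 7 mostly bind plexins directly. Slits are secreted ligands of Robo receptors, netrins attract through Dcc and repel through Unc5 receptors, and ephrins are membrane-anchored ligands of the Eph receptor kinases on neighboring cells. In the circulation the same molecules pattern sympathetic nerves, the outflow tract and the boundary between arteries and veins, for which ephrin B2 (Efnb2, arterial endothelium) and its receptor Ephb4 (venous endothelium) are the textbook pair.

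The promoters of 4 genes that were higher in PA, and that the promoter table holds, are printed because those genes carry the largest artery differences or belong to the secreted semaphorins. They were chosen after the values were seen. Each sequence is 300 bases from RefSeq (build GRCr8), read along the strand of the gene from 250 bases before a start to 50 after it. For Slit3, Sema3d and Ephb6 this start is the outer end of the gene, but for Sema3c it lies inside the gene. Capitals mark matches to 4 motifs searched on both strands.
Slit3: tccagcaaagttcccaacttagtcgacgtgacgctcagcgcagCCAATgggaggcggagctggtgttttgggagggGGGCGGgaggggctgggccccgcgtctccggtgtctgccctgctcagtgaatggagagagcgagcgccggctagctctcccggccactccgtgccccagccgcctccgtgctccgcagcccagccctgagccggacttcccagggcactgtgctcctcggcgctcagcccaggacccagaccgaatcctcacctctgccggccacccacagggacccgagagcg
Sema3d: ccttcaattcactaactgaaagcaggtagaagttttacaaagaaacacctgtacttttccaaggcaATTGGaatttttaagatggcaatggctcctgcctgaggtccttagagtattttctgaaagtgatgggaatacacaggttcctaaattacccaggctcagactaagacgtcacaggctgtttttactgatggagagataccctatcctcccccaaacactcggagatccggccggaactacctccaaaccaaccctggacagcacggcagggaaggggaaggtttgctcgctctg
Ephb6: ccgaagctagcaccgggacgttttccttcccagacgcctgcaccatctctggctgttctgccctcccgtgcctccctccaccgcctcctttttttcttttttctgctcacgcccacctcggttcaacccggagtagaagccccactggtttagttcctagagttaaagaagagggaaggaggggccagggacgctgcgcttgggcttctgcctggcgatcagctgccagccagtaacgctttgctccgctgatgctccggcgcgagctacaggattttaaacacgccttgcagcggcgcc
Sema3c: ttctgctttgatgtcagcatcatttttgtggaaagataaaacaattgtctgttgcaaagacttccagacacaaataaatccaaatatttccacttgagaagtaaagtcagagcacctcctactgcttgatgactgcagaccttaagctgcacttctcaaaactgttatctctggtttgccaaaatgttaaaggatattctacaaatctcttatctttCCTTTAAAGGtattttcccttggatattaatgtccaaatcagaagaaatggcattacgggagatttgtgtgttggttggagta

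The Slit3 promoter (chr10:20075679-20075978, plus strand) holds CCAAT 207 bases and GGGCGG 174 bases before the start. The Sema3d promoter (chr4:23460922-23461221, minus strand) holds CCAAT on the opposite strand, 184 bases before the start, and the Ephb6 promoter (chr4:71458382-71458681, plus strand) holds none of the 4 motifs. The Sema3c window (chr4:18699578-18699877, minus strand) holds a CArG box 33 bases before the start used, which lies inside the gene (18538452 to 18702453). The CArG box is the motif bound by serum response factor, which regulates many genes of smooth muscle. The motifs were the TATA box (TATAAA), the CCAAT box, the GC box (GGGCGG) and the CArG box, and no match overlapped a match to another motif. Of the 45 guidance genes with an entry, the TATA box was found in 0, the CCAAT box in 16, the GC box in 25 and the CArG box in 2, which were Robo1 and Sema3c. Of all 33469 promoters, the shares were 14.2%, 37.5%, 33.1% and 1.64%. A match shows letters in a window, not a bound factor.

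The values are the authors' normalized intensities, scaled to the same 90th percentile on every array. They are given as log2(intensity + 1) of the highest probe of a gene on each array. The 145 differences called in the comparisons described next were also computed with another background correction of the scanner signals (normexp). Of these, 55 were then over 1.5 times smaller on the log2 scale, 0 were over 1.5 times larger, and 19 were not called. The normexp setting also added an offset of 50 to the signals, and the part of the offset in these changes was not tested. Replicates of a region correlated with r between 0.971 and 0.989 over all genes tested. The scanner software marked 58.6% to 79.8% of the probes as well above background, with 76.9% ± 1.99 (SD, n = 11 arrays) in the first row of the slides and 63.0% ± 3.54 (SD, n = 12 arrays) in the second. The lowest signal well above background was between 3.86 and 5.66 on the log2 scale. Rows were not balanced over regions, as 3 LA arrays but only 1 SA and 1 PV array lay in the first row. Counts of arrays well above background can therefore follow the row as well as the region. The tissue labels were checked against marker genes. The summed intensity of 7 smooth muscle markers was 760607 to 894158 on the PA arrays and 63205 to 164718 on the other 19, and that of 5 atrial myocyte markers was 3315 to 38999 in PA, with PA replicate 1 the highest, 237646 to 423208 in V and 1286600 to 1758140 in LA, SA and PV. The 5 sinoatrial pacemaker markers summed to 6930 to 8000 in SA and to at most 6312 elsewhere. Atrial myocyte RNA was thus as abundant in the PV samples as in LA.

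Of the 57 guidance genes, 33 were well above background on every array, 21 on some arrays and 3 (Dcc, Ntn3 and Sema3e) on none. Sema3e did not exceed 4 on any array and was not tested, which left 56 genes of 16089. The moderated F-test of limma found 41 of the 56 (73.2%) to differ among the 6 regions (Benjamini-Hochberg adjusted p below 0.05), beside 64.4% of all genes tested. Of these 41, the highest regional mean was in PA for 17, LV for 9, RV for 8, LA for 4, PV for 2 and SA for 1. The lowest was in PA for 16, SA for 11, LA for 5, LV for 4, RV for 3 and PV for 2. No such counts were made over all genes, so these do not set the guidance genes apart. The 15 genes not called by this test were Dcc, Efna2, Efna4, Efnb2, Epha5, Epha7, Ephb2, Ntn3, Ntn5, Plxna2, Robo2, Sema3g, Sema6c, Unc5c and Unc5d, several of them dim. Of these 15, 7 were nevertheless called in at least 1 of the comparisons that follow, namely Epha5, Ntn3, Sema3g, Efna4, Ntn5, Plxna2 and Unc5c, with 9 calls in all. The heat map gives the regional pattern of the 41 genes by family.

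**Figure D1:**
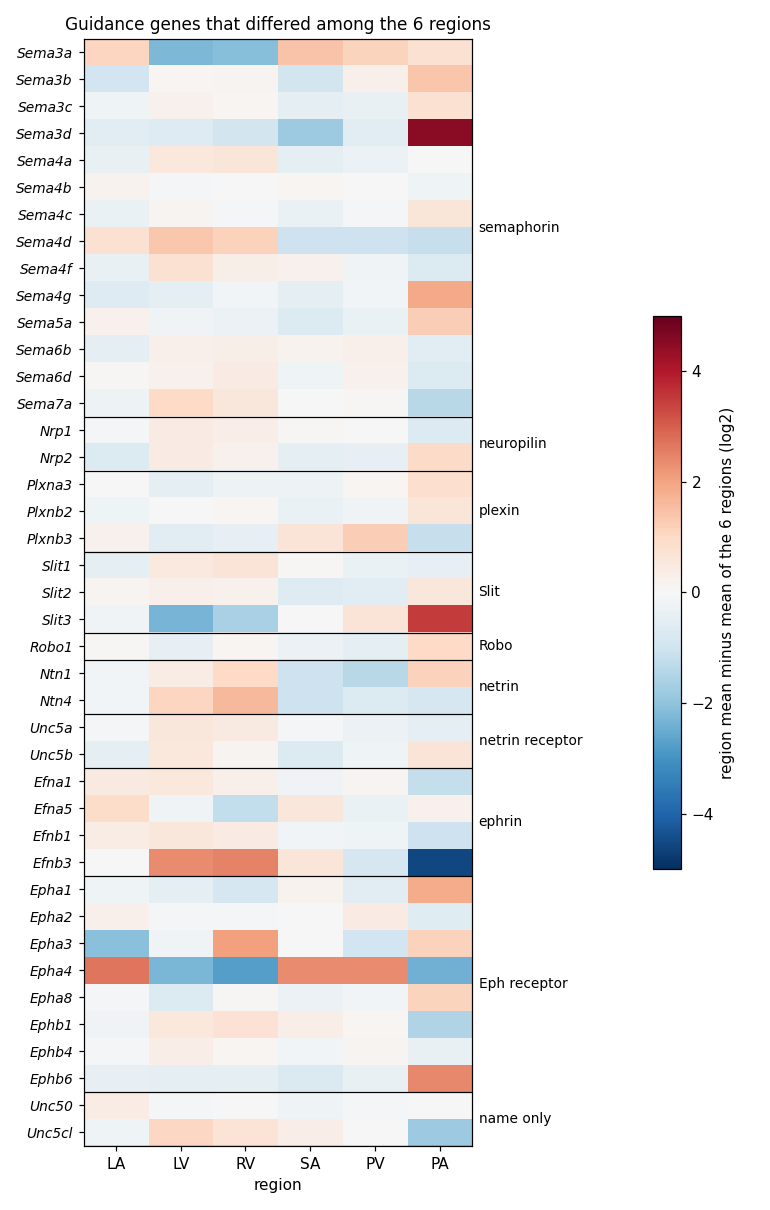
Regional mean minus the mean of the 6 regions, in log2(normalized intensity + 1), for the 41 guidance genes that differ among regions, grouped by family. Columns are the 6 regions (3 arrays for RV and 4 for each of the others). Sema3d and Slit3 stand out above the other regions in PA and Efnb3 below them, while Epha4 is high in LA, SA and PV alone.

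Comparing PA with the average of the 5 remaining regions sets an artery against tissue that holds heart muscle. The largest increases in the artery were those of the secreted ligands Sema3d and Slit3, whereas the secreted ligands Ntn4 and Slit1 were lower, as were all 3 of the ephrins that differed. In the limma fit, 22 of the 56 guidance genes were higher in PA, 19 were lower and 15 were not called. The share called higher was 39.3% of the guidance genes beside 31.4% of all genes, and the share called lower 33.9% beside 27.7%. The median log2 difference was 0.27 over the guidance genes and 0.05 over all genes. The 4 PA arrays did not overlap the other 19 for 16 of the 41 genes called (39%), a smaller share than the 54.2% of all genes called. In bulk tissue, fewer cells of a type and less RNA per cell cannot be told apart.

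Of 16 semaphorins tested, 8 were higher in PA and 6 were lower. Sema3d, a secreted semaphorin that patterns the pulmonary veins of the embryo, was 10.66, 10.61, 10.18 and 10.84 on the PA arrays. On the other 19 arrays it was at most 6.15, with a median of 5.34 and a lowest value of 3.34, and 12 of them were well above background. PA was thus far above every other array, by a log2 fold change of 5.39 ± 0.25 (SE, adjusted p = 1.59e-13 in limma), a 42.0-fold difference, and by 3.75 with normexp background correction. Sema3b, another secreted semaphorin, was 11.21, 11.36, 11.28 and 11.25 in PA and 8.44 to 10.27 elsewhere, with a difference of 1.68 ± 0.11 (adjusted p = 7.42e-11). Sema4g, a transmembrane semaphorin, was 7.94, 8.32, 7.98 and 7.90 in PA and 5.26 to 6.36 elsewhere, 4.81-fold higher (adjusted p = 1.23e-10). For both, the PA arrays were above all others. Sema3c, which guides neural crest cells into the outflow tract, was 1.86-fold higher (10.89 to 11.15 against 9.32 to 10.71, adjusted p = 2.54e-06), and Sema5a 2.83-fold higher (adjusted p = 1.57e-08), again without overlap. Sema3a, a repellent of sympathetic axons, was 1.88-fold above the mean of the others (adjusted p = 0.000689), but its mean in PA, 7.93, lay between those of V and LA.

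Lower in PA were Sema7a, Sema4d, Sema4f, Sema6d, Sema6b and Sema4b. Sema7a, a membrane-anchored semaphorin that binds integrins, was 5.80, 6.13, 6.11 and 5.61 in PA, below the range of 6.84 to 8.36 on the other arrays, a difference of -1.67 ± 0.13 (adjusted p = 8.81e-10). Sema4d, a ligand of plexin B1, was 2.63-fold below the mean of the others (adjusted p = 2.07e-09), although its PA arrays, at 8.89 to 9.65, overlapped SA and PV. Sema6d, which acts in the growth of the ventricular wall, was lower (-0.82 ± 0.14, adjusted p = 4.82e-05).

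The receptors of secreted semaphorins moved in opposite directions. Nrp1, the coreceptor of Sema3a and of vascular endothelial growth factor, was 11.79, 11.70, 11.37 and 11.87 in PA and 11.95 to 13 elsewhere, lower (-0.80 ± 0.11, adjusted p = 2.25e-06). Nrp2 was 9.85 to 10.12 in PA and 7.87 to 9.86 elsewhere, higher by 1.14 ± 0.20 (adjusted p = 4.53e-05). The PA arrays of Nrp1 lay below all others, whereas the lowest Nrp2 array of PA was just below the highest of LV. Of 4 plexins, Plxnb2 (10.25 to 10.70 in PA, 9.35 to 10.03 elsewhere, 1.65-fold, adjusted p = 1.67e-07) and Plxna3 were higher, Plxnb3 was lower (-1.40 ± 0.33, adjusted p = 0.000928, and -0.82 without PA replicate 4), and Plxna2 differed by -0.34 ± 0.17 without passing the test (adjusted p = 0.0937).

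Slit3 had the largest difference after Sema3d among genes higher in PA. It was 14.66, 14.87, 14.36 and 14.60 in PA, against 11.91, 11.36, 11.80 and 12.01 in PV, 10.91, 11.34, 10.94 and 11.19 in SA, and 10.96, 11.17, 10.83 and 10.76 in LA. In the ventricles it was 8.60, 8.75, 8.34 and 9.47 in LV and 9.34, 9.82 and 9.39 in RV. No array of PA, PV or V overlapped an array of another of these groups, and LA and SA lay together. The difference between PA and the others was 4.20 ± 0.16 (adjusted p = 6.74e-15), or 18.4-fold. Slit2 was 1.62-fold higher in PA with overlap (adjusted p = 0.00118), and Slit1, the third ligand, was 1.42-fold lower (adjusted p = 0.037), a call lost without PA replicates 2, 3 or 4 or RV replicate 2, with an adjusted p of up to 0.203. Their receptor Robo1 was 4.74, 6.03, 5.82 and 5.22 in PA, 3 of these well above background, and higher than the mean of the others, of which 7 of 19 arrays were well above background, by 1.18 ± 0.28 (adjusted p = 0.0011, and 0.36 with normexp). Robo2 was well above background on only 1 array, of PA, and differed by 0.39 ± 0.46 (adjusted p = 0.507).

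**Figure D2:**
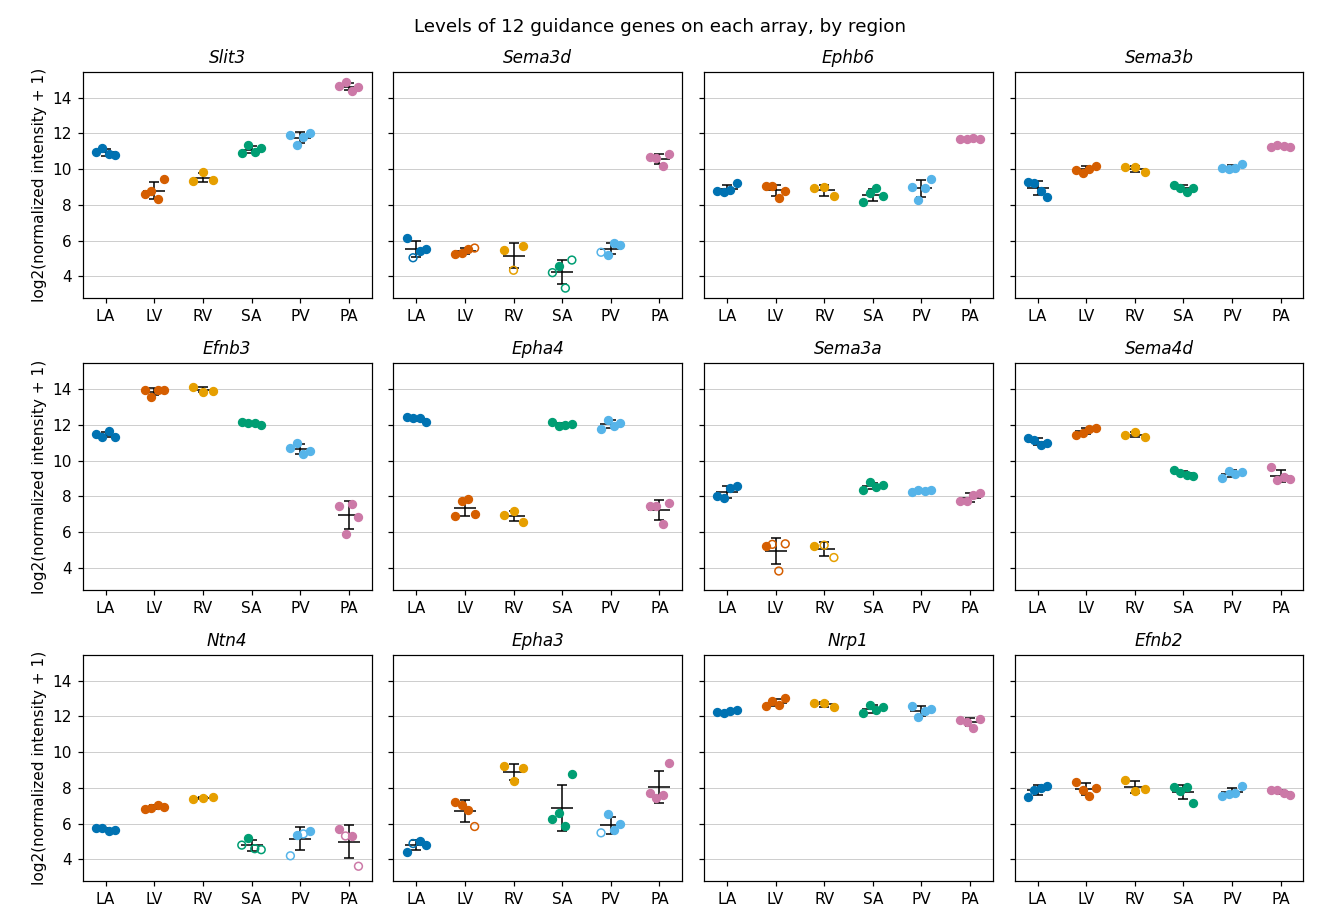
Level of 12 guidance genes on each of the 23 arrays, in log2(normalized intensity + 1), by region. Filled points are well above background, open points are not, and the black bar is the mean ± SD of 3 arrays in RV and 4 in each other region. Slit3 is at 14.36 to 14.87 in PA and at 8.34 to 9.82 in the ventricles, and Epha4 is above 11.7 in LA, SA and PV and below 7.9 in LV, RV and PA.

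Among netrins, Ntn1 was 7.75, 7.99, 7.97 and 7.97 in PA and 5.12 to 9.54 elsewhere, 2.57-fold above the mean of the others (adjusted p = 0.00151) with overlap. Ntn4, a laminin-like netrin of basement membranes, was lower in PA (-1.02 ± 0.26, adjusted p = 0.00212, and -0.37 with normexp), where 2 of 4 arrays were well above background. Without PA replicate 4 the Ntn4 difference was -0.56 (adjusted p = 0.0182). Of 5 netrin receptors, Unc5b, which endothelial cells of sprouting vessels carry, was higher in PA by 0.80 ± 0.12 (12.66 to 13.04, adjusted p = 8.36e-06) and Unc5a was lower (-0.60 ± 0.22, adjusted p = 0.0259), a call lost without PA replicate 1 (adjusted p = 0.0586) or PA replicate 4 (0.156). Dcc, not well above background on any array, gave no evidence of a difference (0.44 ± 0.28, adjusted p = 0.195). Unc5cl, a relative of the netrin receptors by sequence, was lower in PA (-2.18 ± 0.20, adjusted p = 8.56e-09, and -0.48 with normexp), where 1 array of 4 was well above background.

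Efnb3, a transmembrane ephrin, showed the largest decrease in the artery. It was 7.48, 5.89, 7.59 and 6.85 in PA, 10.68, 10.99, 10.37 and 10.55 in PV, 11.51, 11.33, 11.64 and 11.35 in LA, and 12.16, 12.10, 12.09 and 11.99 in SA. In the ventricles it was 13.94, 13.55, 13.93 and 13.97 in LV and 14.13, 13.85 and 13.92 in RV. The 4 groups outside the ventricles did not overlap one another and all lay below V. The difference between PA and the others was -5.45 ± 0.19 (adjusted p = 3.6e-15), which is 43.7-fold, and -4.56 with normexp. A second, dimmer Efnb3 probe, at 5.07 to 6.61 in the regional means and well above background on 16 arrays, was highest in the ventricles too, but its mean in PA, 5.22, did not stand apart from 5.23 in PV and 5.07 in LA. The low level in PA thus rests on the brighter probe. Efna1, a ligand of Epha2 in the endothelium, was 11.22, 10.39, 11.15 and 10.57 in PA and 11.32 to 12.87 elsewhere, 2.69-fold lower (adjusted p = 7.25e-07), and Efnb1 was 6.08 to 6.30 against 6.68 to 8.01, 2.37-fold lower (adjusted p = 1.98e-07). Both lay below all other arrays. For Efnb2, the arterial ephrin, regional means lay between 7.76 and 8.06, and PA differed from the others by -0.11 ± 0.16 (adjusted p = 0.588).

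Of 11 Eph receptors, 5 were higher in PA and 4 were lower. Ephb6, a receptor without kinase activity, was 11.69, 11.69, 11.71 and 11.71 in PA and 8.17 to 9.45 on the other arrays, a difference of 2.90 ± 0.17 (adjusted p = 9.28e-12), or 7.48-fold. Epha1 was 5.27, 5.77, 5.47 and 5.33 in PA, where 3 arrays were well above background, and no other array was. Elsewhere it was at most 3.64, except for SA replicate 3 at 5.77, and the difference was 2.25 ± 0.39 (adjusted p = 3.96e-05), or 0.59 with normexp. Epha3, Epha5 and Epha8 were also higher, by 1.40 ± 0.40, 1.07 ± 0.29 and 1.34 ± 0.29 (adjusted p = 0.00515, 0.00334 and 0.000398). For Epha3, PA replicate 4 was at 9.37 against 7.45 to 7.72 on the other 3, but its value came from a second probe, and the brighter probe gave 8.37 there. Without this array the adjusted p was 0.0538, and with the brighter probe on every array the difference was 1.32 (adjusted p = 0.000108).

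Epha4 was 7.47, 7.47, 6.43 and 7.62 in PA, far below LA, SA and PV. Replicate 3 lay just below the ventricular range of 6.58 to 7.83 and the other 3 within it. PA differed from the mean of all 5 by -2.88 ± 0.18 (adjusted p = 2.99e-11). Epha2, the endothelial receptor of Efna1, was 9.37, 8.94, 9.27 and 9.33 in PA against 9.51 to 10.41, lower (-0.71 ± 0.10, adjusted p = 4.29e-06). Ephb4, the venous receptor of Efnb2, was lower (-0.44 ± 0.09, adjusted p = 0.000216). Ephb2 differed by 1.24 ± 0.67, with a wide spread between arrays (adjusted p = 0.123).

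Cell type markers moved with these differences. Against the other 5 regions, 6 of 7 smooth muscle (1 lower), 4 of 4 adipocyte, 4 of 6 fibroblast (1 lower) and 3 of 6 macrophage markers (1 lower) were higher in PA. Lower were 7 of 8 endothelial, 5 of 5 atrial myocyte, 4 of 4 ventricular myocyte and 3 of 5 lymphocyte markers. So were 4 of 6 Schwann cell markers (1 higher) and 3 of 5 pacemaker markers (1 higher). The endothelial markers summed to 27350 to 52834 in PA and 40854 to 87787 elsewhere. Of the PA arrays, replicate 1 had the highest sum of atrial and replicate 4 that of ventricular myocyte markers. Without replicate 1, 39 guidance genes were called, and the differences were 5.36 for Sema3d, 4.19 for Slit3 and -5.62 for Efnb3. Without replicate 4 there were 37, and the differences were 5.30, 4.21 and -5.41. The part of the cell types in the guidance results was not tested otherwise.

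**Figure D3:**
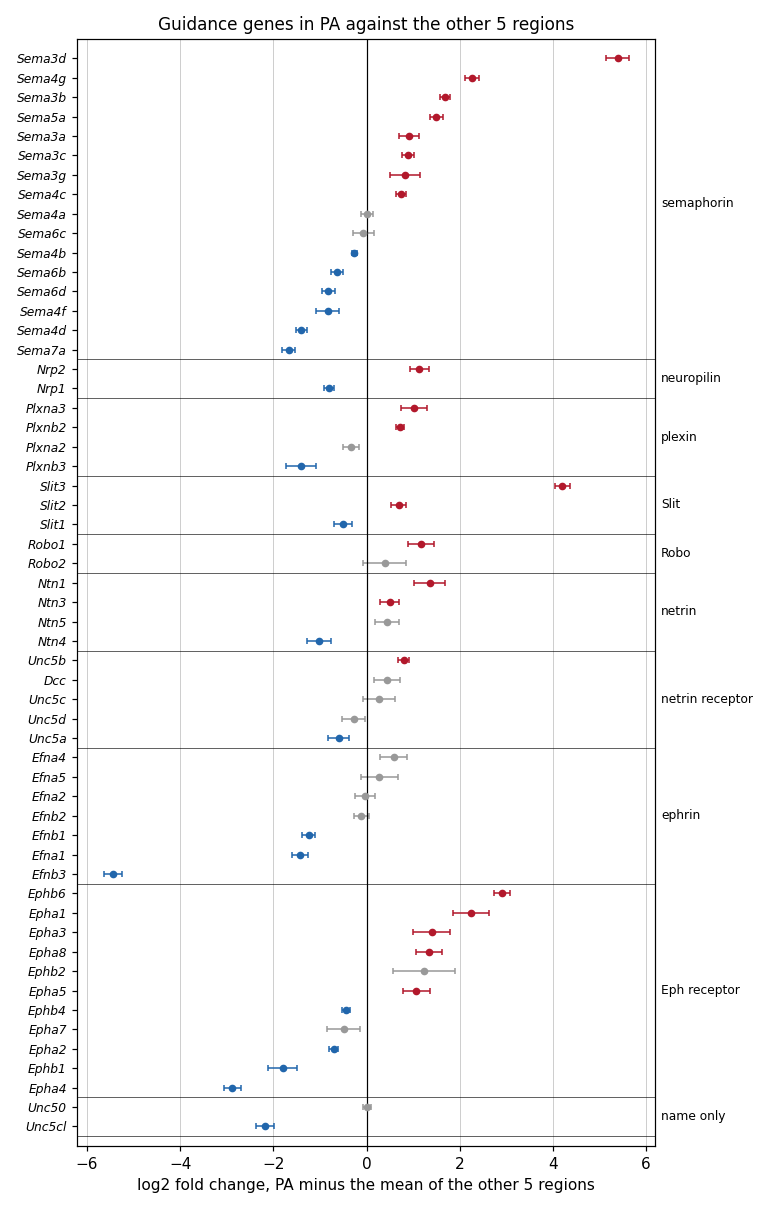
Log2 fold change ± SE of PA over the average of the 5 remaining regions, for the 56 guidance genes tested, by family. Red points are higher and blue points lower in PA at an adjusted p below 0.05, and grey points did not pass. In this comparison 22 genes are red and 19 blue.

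The comparison of PA with PV sets the artery against the vein that enters the left atrium. Here 21 guidance genes were higher in PA and 14 lower, with 21 not called. The shares were 37.5% higher beside 29.7% of all genes and 25.0% lower beside 23.7%, and the median differences were 0.18 and 0.13. The arrays of the regions did not overlap for 33 of the 35 genes called (94.3%, beside 86.8% of all genes called). This comparison shares the PA arrays with the one above, so that its values are given side by side and not as a second test.

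Among ligands, Sema3d was higher in PA than in PV by 5.03 ± 0.32 (32.6-fold, adjusted p = 4.71e-11) and Slit3 by 2.85 ± 0.20 (7.23-fold, adjusted p = 2.72e-10). Ntn1 was 5.74, 5.12, 5.52 and 5.23 in PV, which gave a difference of 2.52 ± 0.43 (5.72-fold, adjusted p = 4.96e-05). Sema3c and Slit2 were both 2.16-fold higher in PA (adjusted p = 5.11e-06 and 0.000167). Efnb3 was lower (-3.70 ± 0.25, 13-fold, adjusted p = 1.51e-10) and so was Sema7a (-1.46 ± 0.17, adjusted p = 3.78e-07). The arrays of PA and PV did not overlap for any of these 7 ligands.

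Among receptors, Epha4 was 11.77, 12.30, 11.93 and 12.11 in PV and thus 27.5-fold lower in PA (-4.78 ± 0.23, adjusted p = 1.14e-12), the largest decrease of a guidance gene between the vessels. Plxnb3, the receptor of Sema5a, was 8.16, 7.16, 7.50 and 7.66 in PV and 5.78, 5.72, 5.96 and 3.50 in PA, 5.21-fold lower in PA (adjusted p = 6.85e-05). One PA array stood far below the other 3, but all 4 lay below PV. Ephb6 was 6.88-fold higher in PA (adjusted p = 1.53e-09), Epha3 4.35-fold (adjusted p = 0.00164, and 3.66-fold with the brighter probe alone) and Nrp2 2.57-fold (adjusted p = 0.00013). Robo1 was higher by 1.42 ± 0.36 (adjusted p = 0.00232, and 0.39 with normexp), with 1 PV array well above background. Epha1, well above background on no PV array, was higher by 2.41 ± 0.50 (adjusted p = 0.000359), or by 0.65 with normexp. Nrp1 was lower (-0.63 ± 0.14, adjusted p = 0.000764) and so was Unc5cl (-1.82 ± 0.26, adjusted p = 4.97e-06, and -0.35 with normexp).

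For the textbook pair of artery and vein, Efnb2 was 7.85, 7.88, 7.71 and 7.62 in PA and 7.56, 7.68, 7.70 and 8.12 in PV. The levels overlapped, with a difference of 0.00 ± 0.21 (adjusted p = 0.996). Ephb4 was 9.58, 9.37, 9.09 and 9.35 in PA and 10.03, 9.74, 9.96 and 9.72 in PV, lower in PA (-0.52 ± 0.11, adjusted p = 0.00064). PV held more RNA of heart muscle and nerve sheath than PA. Between PA and PV, 5 of 5 atrial myocyte, 3 of 4 ventricular myocyte (1 higher) and 5 of 6 Schwann cell markers were lower in PA. So were 3 of 6 autonomic neuron, 3 of 5 pacemaker (1 higher) and 5 of 8 endothelial markers. Higher were 6 of 7 smooth muscle markers and 3 of 6 each of the fibroblast (1 lower), macrophage and lung epithelium lists. Their part in the guidance results was not tested.

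The next comparisons follow the chambers. Between V and LA, 7 of 16 semaphorins were higher in the ventricles and 3 were lower. Both neuropilins and Efnb3 were higher in the ventricles, and the atrium was higher for Epha4, Sema3a, Slit3 and Efna5. Of the 56 guidance genes, 19 were higher in V, 8 were lower and 29 were not called. The share higher was 33.9% beside 18.4% of all genes, and the share lower 14.3% beside 16.9%. With normexp the counts were 26 higher and 6 lower. The median difference was 0.29 over the guidance genes and 0.09 over all genes, and 16 of the 27 genes called (59.3%) did not overlap, beside 68.1% of all genes called.

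Epha4, a receptor for ephrins of both classes, had the largest difference. It was 12.45, 12.36, 12.38 and 12.15 in LA, 6.89, 7.72, 7.83 and 7.03 in LV, and 6.93, 7.18 and 6.58 in RV. V was 36.9-fold lower (-5.20 ± 0.21, adjusted p = 7.15e-13). A second Epha4 probe had the same order, with regional means of 9.85 in LA, 5.05 in LV and 4.91 in RV. Sema3a was 8.04, 7.90, 8.47 and 8.57 in LA, 5.23, 5.31, 3.82 and 5.34 in LV, and 5.24, 5.26 and 4.57 in RV. Only 2 of the 7 ventricular arrays were well above background for it, and V was lower (-3.27 ± 0.24, adjusted p = 2.16e-09), with a difference of -1.60 under normexp background correction. Slit3 was lower in V (-1.78 ± 0.18, 3.43-fold, adjusted p = 1.99e-07). Efna5 was lower (-1.63 ± 0.46, 7.27 to 7.69 in LA, 4.63 to 6.92 in V, adjusted p = 0.00841).

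In the other direction, Efnb3 was 5.45-fold higher in V (2.45 ± 0.22, adjusted p = 5.27e-08), and its 7 ventricular arrays were above all atrial ones. Ntn4 was 6.79, 6.85, 7.03 and 6.95 in LV and 7.40, 7.45 and 7.48 in RV against 5.72, 5.75, 5.59 and 5.64 in LA, 2.83-fold higher in V (adjusted p = 0.000513). Epha3, a receptor of ephrin A ligands that acts in the atrioventricular cushions, was 9.21, 8.4 and 9.11 in RV, 7.22, 7.02, 6.76 and 5.83 in LV and 4.40, 4.88, 5.03 and 4.81 in LA. It was 8.15-fold higher in V (3.03 ± 0.46, adjusted p = 3.13e-05), and every ventricular array was above every atrial one. Sema3b, Sema7a and Sema4a were higher by 1.08 ± 0.13, 1.03 ± 0.15 and 0.96 ± 0.14 (adjusted p = 1.82e-06, 2.07e-05 and 2.67e-05).

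Among receptors, Nrp1 was higher in V by 0.46 ± 0.12 (adjusted p = 0.00715), Nrp2 by 1.01 ± 0.23 (adjusted p = 0.00145) and Unc5b by 0.78 ± 0.14 (adjusted p = 0.000166). Plxna2 (0.53 ± 0.19, adjusted p = 0.0379), Ephb4 (0.30 ± 0.10, adjusted p = 0.0258) and Unc5c (1.21 ± 0.39, adjusted p = 0.0212) were called, but each lost its call without some single arrays. These were LA replicates 1, 2 or 3, LV replicates 1, 2 or 3 or RV replicate 3 for Plxna2 (adjusted p of up to 0.153, and 0.0584 with the replicate number as a block), LA replicates 3 or 4 or RV replicate 3 for Ephb4 (up to 0.0948), and LA replicates 1, 2 or 3 or RV replicate 3 for Unc5c (up to 0.0912). Epha2 was lower in V (-0.31 ± 0.12, adjusted p = 0.0403), a call lost in 10 of 24 alternatives, among them LA replicates 1 or 3, LV replicates 1 or 4 and RV replicates 1 or 2 left out (up to 0.194). Endothelial markers moved the same way, with 5 of 8 higher in V (sums of 70828 to 87787 against 41483 to 54335 in LA), as were 5 of 7 smooth muscle, 4 of 6 macrophage and 3 of 4 ventricular myocyte markers, while 3 of 4 mesothelial and 4 of 5 atrial myocyte markers were lower. Their part in these results was not tested.

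**Figure D4:**
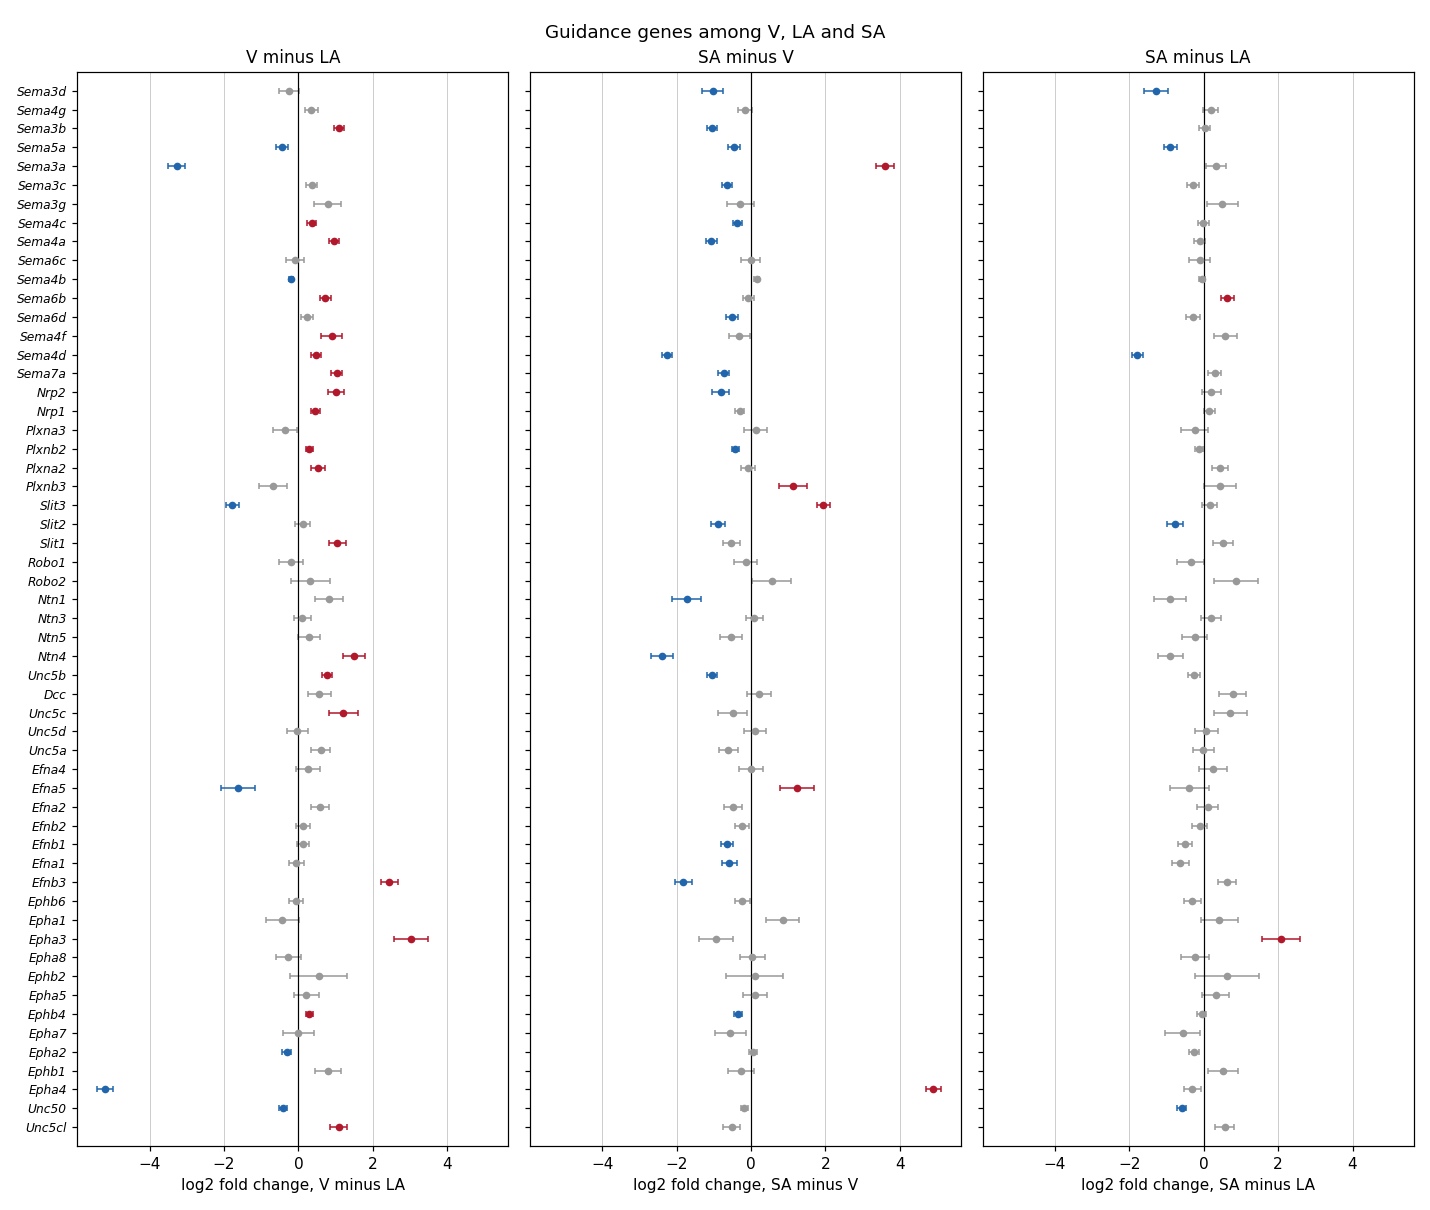
Log2 fold change ± SE for V minus LA, SA minus V and SA minus LA, for the 56 guidance genes tested, by family. Red points are higher and blue points lower in the region named first at an adjusted p below 0.05, and grey points did not pass. Epha4, Sema3a and Slit3 lie far to the left in V minus LA and far to the right in SA minus V, and 7 genes are colored in SA minus LA.

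Between SA and V, 5 guidance genes were higher in SA and 19 were lower, with 32 not called. The share higher was 8.93% beside 12.3% of all genes and the share lower 33.9% beside 15.8%, with medians of -0.31 and -0.06. With normexp the counts were 5 higher and 11 lower. Of the 24 genes called, 16 (66.7%) did not overlap between the regions, beside 70.8% of all genes called. Of 16 semaphorins, 9 were lower in SA and 1, Sema3a, was higher. The V arrays are shared with the comparison above.

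Epha4 was 12.15, 11.93, 12.01 and 12.03 in SA, 29.9-fold above V (4.90 ± 0.21, adjusted p = 1.51e-12). Sema3a was 8.37, 8.79, 8.54 and 8.62, above V by 3.60 ± 0.24 (adjusted p = 6.52e-10), or by 1.96 with normexp, and 2 of the 7 V arrays were well above background for it. Slit3 was 3.84-fold higher (adjusted p = 8.41e-08). Plxnb3 was 7.22, 6.74, 7.32 and 7.0 in SA against 5.10 to 6.54 in V, 2.19-fold higher (adjusted p = 0.0284), but the call was lost without any 1 of LV replicate 4, RV replicate 2 and SA replicates 1, 3 and 4, with an adjusted p of up to 0.0798. Efna5 was also called higher (1.25 ± 0.46, adjusted p = 0.0489), a call lost without SA replicate 1 (0.79, adjusted p = 0.233), without LV replicates 2 or 3, RV replicates 2 or 3 or SA replicate 3, and with slide (0.108) or array row (0.0553) as a block.

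Of the genes lower in SA, Sema4d was 9.47, 9.31, 9.19 and 9.14 in SA and 11.32 to 11.80 in V, a difference of -2.27 ± 0.13 (4.82-fold, adjusted p = 1.45e-10). Ntn4 was 4.79, 5.18, 4.59 and 4.54 in SA, 1 array of which was well above background, and lower than in V (-2.40 ± 0.30, adjusted p = 4.08e-06, and -0.91 with normexp). Efnb3 was 3.53-fold lower (adjusted p = 3.4e-06). Ntn1 was 5.62, 5.93, 5.64 and 5.83 in SA and 6.86 to 7.44 on 6 of the V arrays, with RV replicate 3 at 9.54, and lower in SA (-1.73 ± 0.38, adjusted p = 0.00177, and -0.83 with normexp), where 2 of 4 arrays were well above background. Without exception, the arrays of SA and V did not overlap for these 4 genes. Sema4a (2.10-fold), Sema3b (2.07-fold), Unc5b (2.06-fold) and Slit2 (1.85-fold) were lower with adjusted p of 9.91e-06, 3.61e-06, 8.6e-06 and 0.0013, of which Slit2 lost its call with normexp background correction (adjusted p = 0.0851). Nrp2 was lower (-0.81 ± 0.23, adjusted p = 0.00985), and Nrp1 differed by -0.30 ± 0.12 (adjusted p = 0.0788). Endothelial markers (6 of 8) and macrophage markers (5 of 6) were lower in SA, as were 3 of 4 ventricular myocyte markers. Higher were smooth muscle (5 of 7), Schwann cell (4 of 6), atrial myocyte (4 of 5), pacemaker (4 of 5) and adipocyte markers (3 of 4). Mesothelial markers were 3 higher and 1 lower, and fibroblast markers 3 higher and 3 lower. Their part in these results was not tested.

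SA and LA are both of the atria. In SA, 2 were higher and 5 lower, and 49 were not called, which is 3.57% higher beside 7.03% of all genes and 8.93% lower beside 8.26%. With normexp the counts were 12 higher and 3 lower. None of the 7 genes overlapped, as was so for 90.1% of all genes called. Sema4d, at 11.27, 11.15, 10.85 and 10.99 in LA, was lower in SA (-1.79 ± 0.15, 3.45-fold, adjusted p = 3.3e-07). Sema5a was 6.95, 6.99, 6.46 and 6.95 in SA and 7.39, 7.94, 8.04 and 7.57 in LA, lower (-0.90 ± 0.18, adjusted p = 0.00241). Unc50, a membrane protein that is here by name only, was lower (-0.60 ± 0.11, adjusted p = 0.00112). Epha3 was 6.24, 6.61, 5.86 and 8.75 in SA, above LA by 2.08 (adjusted p = 0.0093, and 0.0589 in the test of the compared arrays alone). The value of SA replicate 4 came from the second probe, where the brighter one gave 5.44, and with the brighter probe on every array the difference was 1.26, or 2.39-fold (adjusted p = 0.0106). Sema6b was 10.40, 10.35, 10.96 and 10.34 in SA and 9.80 to 9.99 in LA, higher by 0.64 ± 0.17 (adjusted p = 0.013), and without SA replicate 3 the adjusted p was 0.0558. Slit2 was lower (-0.77 ± 0.21, adjusted p = 0.0175), a call lost without LA replicate 2 (adjusted p = 0.0743), without SA replicate 2 (0.0516) and with normexp background correction (0.555). Sema3d was lower (-1.29 ± 0.32, adjusted p = 0.0088), but only 1 SA array and 3 LA arrays were well above background. These arrays all lay in the first row of the slides and the others in the second. Normexp reduced the Sema3d difference to -0.04. In SA, 6 of 7 smooth muscle and 4 of 5 pacemaker markers were higher and 4 of 4 mesothelial markers lower. Of 6 fibroblast markers, 3 were higher and 2 lower. Their part was not tested.

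PV and LA are neighboring tissues that share heart muscle. In PV, 3 guidance genes were higher, 5 were lower and 48 were not called, so that 5.36% were higher beside 6.99% of all genes and 8.93% lower beside 6.51%. The split was 6 higher and 3 lower with normexp and 3 and 2 with quantile normalization. Of these 8, 6 (75%) did not overlap, beside 85% of all genes called. Sema3b was 10.08, 10.02, 10.07 and 10.27 in PV and 9.27, 9.21, 8.75 and 8.44 in LA, higher in PV by 1.20 ± 0.15 (2.29-fold, adjusted p = 2.07e-05). Slit3 was 1.79-fold higher (adjusted p = 0.00796) and Sema6b 1.61-fold (adjusted p = 0.00874). Sema4d was 9.0, 9.44, 9.24 and 9.39 in PV, lower than in LA (-1.80 ± 0.15, 3.48-fold, adjusted p = 3.1e-07), and Unc50 was lower (-0.45 ± 0.11, adjusted p = 0.00905). Efnb3 was lower (-0.81 ± 0.25, adjusted p = 0.0364), and lost its call without any 1 of the 4 LA arrays or of PV replicates 1, 3 and 4, with an adjusted p of up to 0.106, although no array overlapped. With array row as a block the Efnb3 difference was -0.61 (adjusted p = 0.0858), and 3 of 4 LA arrays but 1 of 4 PV arrays lay in the first row. Slit2 (-0.66 ± 0.21, adjusted p = 0.0436) and Efnb1 (-0.58 ± 0.18, adjusted p = 0.0398) overlapped, and each lost its call in 12 alternatives. Among these were the arrays LA replicates 2, 3 and 4 and PV replicates 1, 3 and 4 left out for Slit2 (adjusted p of up to 0.16), and LA replicates 1, 2 and 3 and PV replicates 1, 3 and 4 for Efnb1 (up to 0.123). Slit2 also lost it with slide as a block (0.0672) and Efnb1 with array row as a block (0.098).

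Between PV and SA, 2 guidance genes were higher in PV, 1 was lower and 53 were not called, with shares of 3.57% beside 2.71% of all genes and 1.79% beside 0.783%. With normexp 1 was higher and 1 lower. Sema3b was higher in PV by 1.17 ± 0.15 (9.13, 8.97, 8.74 and 8.95 in SA, adjusted p = 0.000581) and Efnb3 lower (-1.44 ± 0.25, 2.71-fold, adjusted p = 0.00381). Neither overlapped, nor did Sema3d, and 89.3% of all genes called did not. Sema3d was higher by 1.29 ± 0.32 (adjusted p = 0.0287), with 3 PV arrays and 1 SA array well above background, and lost its call with normexp, which left a difference of 0.22 (adjusted p = 0.433), in the test of the compared arrays alone (0.137), and without SA replicates 1 or 3 or PV replicates 3 or 4 (up to 0.106). Against LA, 5 of 6 Schwann cell, 6 of 7 smooth muscle, 3 of 5 pacemaker, 3 of 6 fibroblast, 3 of 4 adipocyte and 3 of 6 neuronal markers were higher in PV and 4 of 4 mesothelial markers lower. Against SA, 4 of 6 Schwann cell, 4 of 7 smooth muscle, 3 of 6 fibroblast and 3 of 6 neuronal markers were higher. The Schwann cell markers summed to 12623 to 17452 in PV, 6967 to 7788 in SA and 3792 to 5658 in LA, and their part in these results was not tested.

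Between LV and RV, 0 of the 56 guidance genes were higher and 0 were lower in limma at an adjusted p below 0.05, beside 0.298% and 0.224% of all genes. At an unadjusted p below 0.05 there were 4, Epha3, Slit3, Unc5b and Sema7a. For Epha3, LV minus RV was -2.20 ± 0.56 (adjusted p = 0.0864), and no array overlapped. For Slit3 the difference was -0.73 ± 0.22 (adjusted p = 0.155). With normexp background correction, or with the probe of highest mean in place of the highest probe on each array, 1 gene was called.

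**Figure D5:**
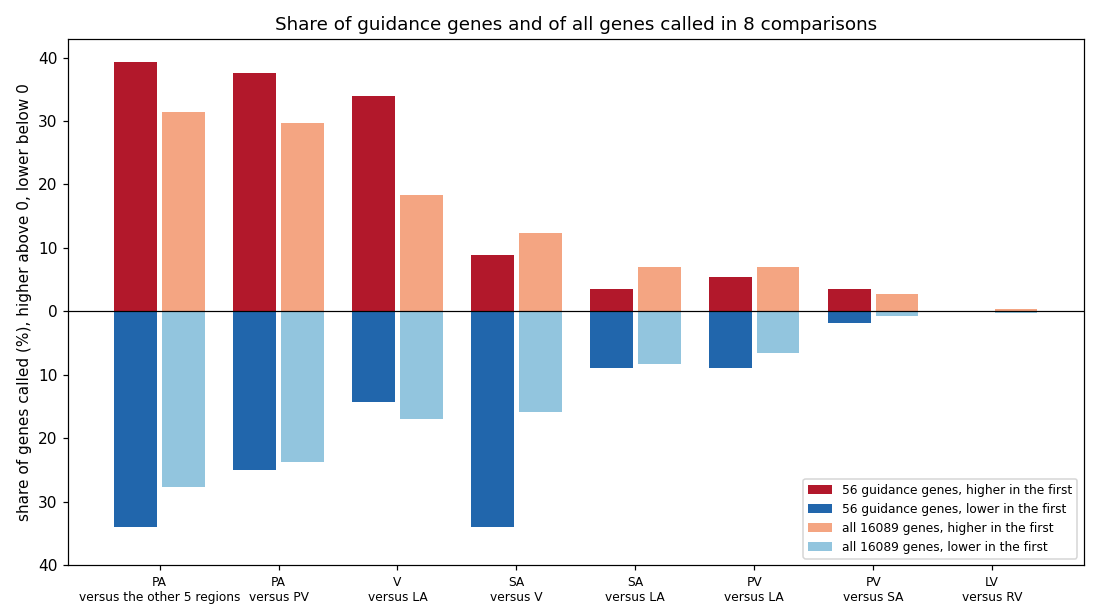
Percent of the 56 guidance genes and of all 16089 genes called higher (above 0) and lower (below 0) at an adjusted p below 0.05 in each of the 8 comparisons, for the region named first. The widest gaps are for genes higher in V than in LA, 33.9% against 18.4%, and for genes lower in SA than in V, 33.9% against 15.8% (19 genes, or 11 with normexp).

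Region specificity among LA, V and SA was measured by SPM. This is a regional mean over the root of the summed squares of the means of all 3 regions, so that a value near 1 is reached only by a gene found in 1 region. A gene was specific to a region where its SPM exceeded 0.613 and the F-test over the 3 regions passed. Of 54 guidance genes tested, 4 were specific to LA (3.53% of all genes were), 9 to V (5.36%) and 4 to SA (2.63%). Over the alternatives other than leaving 1 array out, the counts were 3 to 6 for LA, 8 to 16 for V and 3 to 11 for SA. Epha4 had an SPM of 0.661 in LA and 0.645 in SA, and Sema3a of 0.639 in LA and 0.665 in SA, so that both counted as specific to both atrial regions. The others were Sema3d (0.632) and Efna5 (0.629) in LA, and Plxnb3 (0.622) and Slit3 (0.615) in SA. Sema3d had an SPM of 0.605 in V too and Slit3 of 0.606 in LA. In limma, Sema3d was not called between V and LA, nor Slit3 between SA and LA. The highest values in V were those of Ntn4 (0.693), Epha3 (0.675) and Ntn1 (0.645), followed by Efnb3, Unc5cl, Sema4d, Sema7a, Sema3b and Nrp2 between 0.617 and 0.641. SPM was taken from log2 values, and the specific genes lay between 0.615 and 0.693, beside the threshold of 0.613.

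Other genes of guidance signaling, a list of 40 co-receptors, further ligands and cytoplasmic partners, were followed beside the main families. Of 35 tested, 14 were higher and 14 lower in PA than in the other regions, 40% in each direction beside 31.4% and 27.7% of all genes. Ngef, the exchange factor that couples EphA receptors to the cytoskeleton, was 15.7-fold higher in PA (3.98 ± 0.12, adjusted p = 4.59e-16). Dpysl3, of the collapsin response mediator family, was 8.68-fold higher (adjusted p = 1.41e-13), Rras, a small GTPase that plexins inactivate, 5.02-fold (adjusted p = 2.23e-15) and Mical1, an oxidase of actin that binds plexins, 4.17-fold (adjusted p = 3.57e-13). Hjv, a homolog of the neogenin ligand Rgma that striated muscle expresses, was 118-fold lower in PA (-6.88 ± 0.30, adjusted p = 6.92e-14).

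Against PV, 11 of the 35 partners were higher in PA (31.4%, beside 29.7% of all genes) and 12 lower (34.3%, beside 23.7%). L1cam, an adhesion molecule of axons and Schwann cells and a partner of Nrp1, was 6.94-fold lower in PA than in PV (adjusted p = 6.69e-10). It was also 3.27-fold higher in PV than in LA (adjusted p = 2.16e-05). In V against LA, 12 were higher (34.3%, beside 18.4% of all genes) and 6 lower (17.1%, beside 16.9%), with Crmp1 3.47-fold higher (adjusted p = 0.0017) and Vav2, an exchange factor below Eph receptors, 1.61-fold lower (adjusted p = 2.1e-06). In SA against V, 8 were higher (22.9%, beside 12.3%) and 9 lower (25.7%, beside 15.8%), with Dpysl4 3.53-fold higher (adjusted p = 9.55e-08). In SA against LA 8 were higher (22.9%, beside 7.03%) and 3 lower (8.57%, beside 8.26%), and in PV against LA 9 were higher (25.7%, beside 6.99%) and 4 lower (11.4%, beside 6.51%). In PV against SA 3 were higher (8.57%, beside 2.71%) and 0 lower (beside 0.783%). In LV against RV 0 were higher (beside 0.298%) and 1 lower (2.86%, beside 0.224%), where Vav2 was lower in LV (-0.53 ± 0.10, adjusted p = 0.0157).

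Several genes had more than 1 probe, and the highest on each array was used, so that values of 1 gene can come from different probes, as on 2 arrays for Epha3, 1 for Slit2 and 3 for Unc5cl. For Nrp1, Unc5b and Epha4 the second probe followed the first. For Epha3 it was 6.94 in PA and 6.79 in RV in the regional means, where the brighter probe was higher in RV. Of 44 called differences of genes with a second probe, that probe differed in the same direction in 35, by at most 0.05 either way in 3 (Efnb3 in PA against PV, Slit2 in SA against V and Unc5cl in PA against the other regions) and in the opposite direction in 6. These 6 were Sema4b in PA against the other regions (6.46 against 6.04 by the second probe, which was lower in PA by the brighter one) and against PV, Unc5a in PA against the other regions (5.37 against 4.81), Ephb1 in PA against PV, Efnb3 in PV against LA (5.23 against 5.07), and Unc5cl, whose second probe was well above background on 1 array, in V against LA. Their directions therefore depend on the probe. The sign of the difference was the same within each of the 3 slides and each of the 2 rows of arrays as over all arrays for all 41 genes called in PA against the other regions, 35 in PA against PV, 27 in V against LA, 24 in SA against V, 7 in SA against LA, 8 in PV against LA and 3 in PV against SA. RV was not on the first slide, where V was LV alone.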

How the data were processed

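RNA of 23 rat tissue samples was measured on Agilent SurePrint G3 Rat arrays, with 3 samples of RV and 4 of every other region, grouped by their labels. Per the file headers, Agilent Feature Extraction (11.0.1.1) gave a background-subtracted and detrended intensity for each spot. The authors' deposited normalized intensity is that signal scaled to an equal 90th percentile on all arrays, on a linear scale. From these intensities, 156 of 45596 probes with a missing value were removed, 21109 probes were named by matching the accession to RefSeq, each gene took its highest probe on an array, and a pseudocount of 1 was added before log2. The 16089 genes above 4 on at least 1 array were fitted by region in limma (version 3.58.1, R 4.3.3), with 1 estimate of spread for all 23 arrays and Benjamini-Hochberg adjustment over all genes. For SPM, limma's moderated F-test over LA, V and SA (15809 genes) was used in place of a plain analysis of variance, and the threshold was the 95th percentile after 1 permutation per gene (seed 1). The code was tested on simulated data.

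The guidance genes, the partner and cell type lists and the rule for named genes were chosen with earlier results of these data known. Named were, for each comparison, the 5 genes with the largest differences in each direction among those called, detected above background throughout the higher region and without overlap, the 3 highest SPM values of each region, and members with a textbook role in heart, vessel or nerve patterning. Alternatives were other scalings (75th percentile, quantile), the scanner signals, normexp background correction (offset 50), a pseudocount of 16, other filters, the probe with the highest mean, blocks for slide, array row and replicate number, a trend in the prior variance, only the arrays compared, a plain analysis of variance as in the methods, V from LV alone, SPM from linear signals, and each array left out. No spot was saturated, and precision is limited by 3 or 4 arrays a region.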

Additional observations from a re-analysis of the deposited data

Results flagged for a closer look

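In 206 groups of 4 arrays of 1 region in which the gene was well above background on all 4, the gap of the most distant array to its nearest neighbor was divided by the range of the group. It exceeded the critical value of Dixon's test (0.829 for 4 samples) in 12, where chance alone gives about 1 in 20. The ratio was 0.8975 for Efnb3 in LV, where replicate 2 was 13.55 and the others 13.93 to 13.97. It was 0.8386 for Unc5cl in LV (replicate 2 at 7.039, the others 6.733 to 6.783).

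In PA it was 0.8581 for Epha3 (replicate 4 at 9.367, from a second probe, the others 7.45 to 7.722; the brighter probe gave 8.37 on replicate 4), 0.8679 for Epha4 (replicate 3 at 6.435, the others 7.465 to 7.622) and 0.8939 for Ntn1 (replicate 1 at 7.747, the others 7.968 to 7.994). In PV it was 0.8659 for Sema3c (replicate 2 at 9.319, the others 10.02 to 10.13) and 0.8346 for Sema6d (replicate 4 at 9.383, the others 9.155 to 9.192).

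In SA it was 0.9575 for Epha2 (replicate 1 at 9.609, the others 9.872 to 9.884), 0.9218 for Sema5a (replicate 3 at 6.463, the others 6.951 to 6.992) and 0.9091 for Sema6b (replicate 3 at 10.96, the others 10.34 to 10.4). It was also 0.8724 for Unc50 (replicate 1 at 9.77, the others 9.594 to 9.616) and 0.8939 for Unc5a (replicate 4 at 9.282, the others 10.24 to 10.36). None of the 12 was in LA.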

How the results depend on the processing

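Of 145 differences of guidance genes called in the 7 comparisons with calls, 107 were called under every alternative that tested the gene, and none changed direction. In PA against the other regions 36 of 41 held, against PV 29 of 35, in V against LA 18 of 27, in SA against V 14 of 24, in SA against LA 3 of 7, in PV against LA 5 of 8 and in PV against SA 2 of 3. With slide as a block 5 calls were lost, and with array row 9. Precision is limited by 3 or 4 arrays a region and, for dim genes, by background.

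The counts of guidance genes called moved by over 1.5 times as follows, and the cause was not tested. For PV against LA (8) there were 5 with quantile normalization and 5 to 9 with 1 array left out. For SA against LA (7) there were 15 with normexp. For LV against RV (0) there was 1 with normexp, 1 with the probe of highest mean and 0 to 1 with 1 array left out. For V-specific genes (9) there were 16 with normexp, 14 with a pseudocount of 16 and 15 when only genes well above background were kept, and for SA-specific genes (4) there were 11 with normexp. The split into higher and lower moved with normexp to 26 and 6 in V against LA, 5 and 11 in SA against V, 12 and 3 in SA against LA, 6 and 3 in PV against LA and 1 and 1 in PV against SA, and with quantile normalization to 3 and 2 in PV against LA. Normexp also moved the median of all genes, from 0.01 to 0.17 in SA against LA.

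Over the 15 pairs of regions, same-numbered arrays did not on the whole deviate together (correlations of -0.376 to 0.336, mean -0.016, other numbers 0.006). LV and PA were an exception, with 0.126 to 0.336 for all 4 numbers (mean 0.204, other numbers -0.0658). Their arrays of each number lay on the same slide and in the same row, and what they share beyond that was not tested. With the replicate number as a block, the counts were 40, 35, 26, 23, 8, 7, 3 and 0 for the 8 comparisons in the order of the report, and in PA against the other regions the call lost was that of Ntn3 (adjusted p = 0.0635).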
